A study of Mus musculus with 12 samples.

Results

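The nuclear genes of oxidative phosphorylation were described in embryoids and controls derived from mouse embryonic stem cells. Members were all genes of the deposited table whose symbol begins with Nduf, Uqcr or Atp5, or with Cox followed by 4, 5, 6, 7 or 8, together with Sdha, Sdhb, Sdhc and Sdhd. This gave 94 of 24946 genes, with 47 for complex I, 4 for complex II, 8 for complex III, 18 for complex IV and 17 for complex V, and the rule used symbols alone. Of the 94, 92 had a group mean above 1 in at least 1 group and were tested, while Cox7b2 and Cox8c, forms of complex IV subunits known from testis, were listed at 0 in all 12 libraries.

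Embryoids were made from aggregates of the mouse line E14TG2a (129/Ola) in which a 50-cell aggregate, kept for 8 h with BMP4 at 10 ng/ml on day 3, was merged with a 100-cell aggregate that saw no BMP4. Controls joined untreated aggregates of the same 2 sizes. By the labels the conditions differ in the instructed aggregate, but a possible difference of line, described below, is not separated from it. Bulk RNA was sequenced from pools of 12 structures per library at D7 and at D8, with 3 libraries per group: D7 embryoids, D7 controls, D8 embryoids and D8 controls. These pool sizes and this BMP4 concentration are those of the sample labels, and the study's methods give other figures for both.

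Oxidative phosphorylation passes electrons from NADH through complex I, or from succinate through complex II, to complex III and on to oxygen at complex IV, and the proton gradient built on the way drives ATP synthesis by complex V. Most subunits are encoded in the nucleus and imported, whereas a core set of proteins is encoded by mitochondrial DNA, whose genes were not analysed here. Several complex IV subunits exist as a general form and as a form made mainly in heart and skeletal muscle, in lung or in testis, and the muscle forms are known to replace the general ones as the heart matures. Assembly factors help to build the complexes without being part of the finished enzymes.

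Values were whole numbers with library totals of 997897 to 998433. They were treated here as TPM (transcript counts per unit of length, scaled to one fixed total) that the authors had rounded, so levels can be set side by side between genes. The read depth behind them is unknown, and a value of 1 or 2 is coarse. All libraries carry the same line name in the labels, yet Hprt, a gene E14TG2a cells are known to lack, was at 0 or 1 TPM in the 6 embryoid libraries and at 32 to 36 TPM in the 6 control libraries. The library names also begin with different letters, E14 for embryoids and WT for controls. A difference of line and the BMP4 instruction cannot be told apart in any comparison of embryoids with controls below. Cytosolic ribosomal protein genes took 17.2 to 19.95% of the total in D7 embryoids and 13.7 to 14.3% in D7 controls, and 16.6 to 17.4% in D8 embryoids and 11.4 to 11.9% in D8 controls. The median of all 13751 tested genes was -0.19 (log2) at D7 and -0.18 at D8, and -0.10 and -0.06 with ribosomal protein genes out of the totals. The changes of members are read against these shifts.

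Together the 94 genes took a similar share of the library total in every group. The share was 2.26 ± 0.166% in D7 embryoids and 2.45 ± 0.0198% in D7 controls, and 2.34 ± 0.0571% in D8 embryoids and 2.41 ± 0.0512% in D8 controls (SD, n = 3 each). The range in D7 embryoids, 2.14 to 2.45%, overlapped that in D7 controls, 2.44 to 2.47%, only through embryoid replicate 2, and the D8 ranges, 2.27 to 2.38% in embryoids and 2.35 to 2.45% in controls, overlapped as well. With ribosomal protein genes taken out of the total, the order at D8 turned round, at 2.82 ± 0.0801% in embryoids and 2.73 ± 0.0628% in controls, while the D7 shares were 2.78 ± 0.253% in embryoids and 2.85 ± 0.0339% in controls. Complex V held the largest share of the 5 in all 4 groups (0.892% in D7 embryoids, 0.952% in D7 controls, 0.925% in D8 embryoids and 0.924% in D8 controls) and complex II the smallest (0.117%, 0.132%, 0.122% and 0.134% in the same groups). In bulk samples fewer cells of a type and less RNA per cell cannot be told apart.

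**Figure D1:**
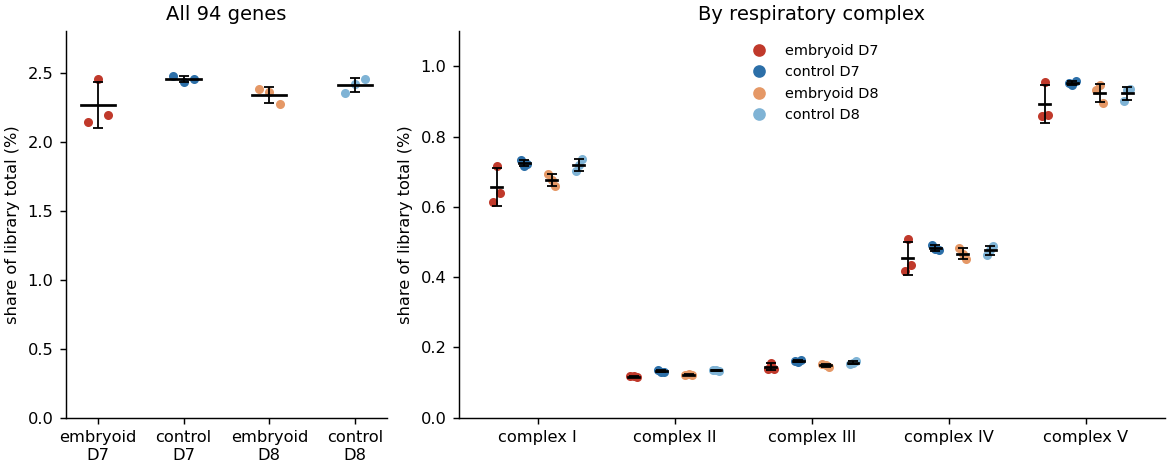
Share of each library's total TPM (%) taken by all 94 genes (left) and by the genes of each respiratory complex (right) in embryoids and controls at D7 and D8. Points are libraries, horizontal bars the mean and error bars the SD (n = 3). All groups lie between 2.14 and 2.48% and D7 embryoid replicate 2 stands above the other D7 embryoid libraries in complexes I, III, IV and V.

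Embryoid replicate 2 at D7 stood apart for these genes. It had the highest value of its group for 73 of 92 members and lay 0.13 (log2, median over members) above its group mean, while over all tested genes it lay 0.09 below. It also had the highest ribosomal protein share of the group, 19.95%, against 17.2% and 17.99% in the other D7 embryoid libraries. Without this library the share of D7 embryoids was 2.17%.

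Changes of single members between embryoids and controls were small, apart from a few tissue forms of complex IV. At D7, 86 of 92 members (93.5%) lay within 0.5 (log2) of no difference, against 59.8% of all tested genes, and at D8, 85 of 92 (92.4%) did, against 56.2%. The interquartile range of the log2 fold changes was 0.26 for members and 0.67 for all tested genes at D7, and 0.27 and 0.75 at D8. Members are on average highly expressed, so the same was computed above a mean of 20 TPM: 78 of 81 members (96.3%) and 72.5% of all such genes lay within 0.5 at D7, and 80 of 81 (98.8%) and 69.4% at D8. The median of members was -0.14 at D7 and -0.10 at D8, close to the medians of all genes given above.

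At an adjusted p under 0.05 and any size of change, 6 members rose and 45 fell in D7 embryoids, where 20.4% of all tested genes rose and 44.8% fell. The members' shares were 6.52% and 48.9%, so fewer rose than among all genes and about as many fell. At D8, 12 members rose (13.0%, background 23.9%) and 30 fell (32.6%, background 44.4%), both below the share of all genes. A change of more than 1 (log2) as well was reached by 3 members at D7, with Cox4i2 and Cox6a2 higher (background 7.57%) and Cox6b2 lower (background 8.35%), and by 4 at D8, with Cox6a2, Cox4i2, Cox8b and Cox7a1 higher (background 10.3%) and none lower (background 9.69%). All 5 of these genes encode tissue forms of complex IV subunits. Values of embryoids and controls did not overlap for 6 members that were higher and 41 that were lower at D7 (19.1% and 42% of all tested genes), and for 18 and 38 at D8 (25% and 48.3%).

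**Figure D2:**
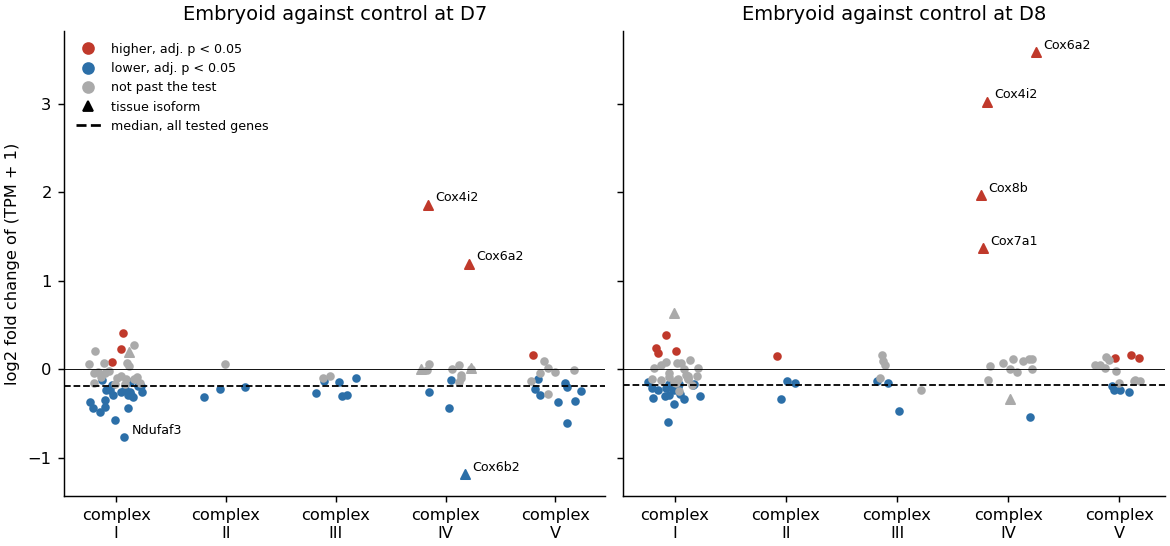
Log2 fold change of (TPM + 1) in embryoids against controls at D7 (left) and D8 (right) for the 92 tested members, by respiratory complex. Each point is a gene, red where it rose and blue where it fell at an adjusted p under 0.05, grey where it did not pass, with triangles for tissue isoforms and the dashed line at the median of all tested genes (-0.19 and -0.18). Most points lie close to that line, and Cox6a2 (3.58), Cox4i2 (3.02), Cox8b (1.97) and Cox7a1 (1.37) stand above the rest at D8.

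The direction of the small changes depended on how libraries were scaled. With median-of-ratios scaling, which moved the median of all genes to 0.02 at D7 and 0.05 at D8, 18 members rose and 6 fell at D7 (background 31.7% and 28.3%) and 30 rose and 3 fell at D8 (background 35.1% and 29.6%). Quantile normalization gave 10 higher and 27 lower at D7 (background 28.2% and 33.5%) and 25 higher and 11 lower at D8 (background 30.2% and 38.2%). Totals without ribosomal protein genes gave 10 higher and 28 lower at D7 (background 24% and 37.8%) and 25 higher and 11 lower at D8 (background 28.7% and 36.4%). Under all 4 scalings 5 members rose at D7 (Cox4i2, Cox6a2, Ndufa9, Ndufc2 and Ndufv1) and 6 fell (Atp5l, Cox6b2, Ndufaf3, Ndufaf5, Ndufs3 and Sdha). At D8, 11 rose (Atp5c1, Atp5g2, Cox4i2, Cox6a2, Cox7a1, Cox8b, Ndufa9, Ndufab1, Ndufc2, Ndufv3 and Sdhd) and 3 fell (Cox6a1, Ndufaf3 and Uqcrq). Atp5b, the catalytic beta subunit of complex V, was called in both directions at D8 under different scalings.

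**Figure D3:**
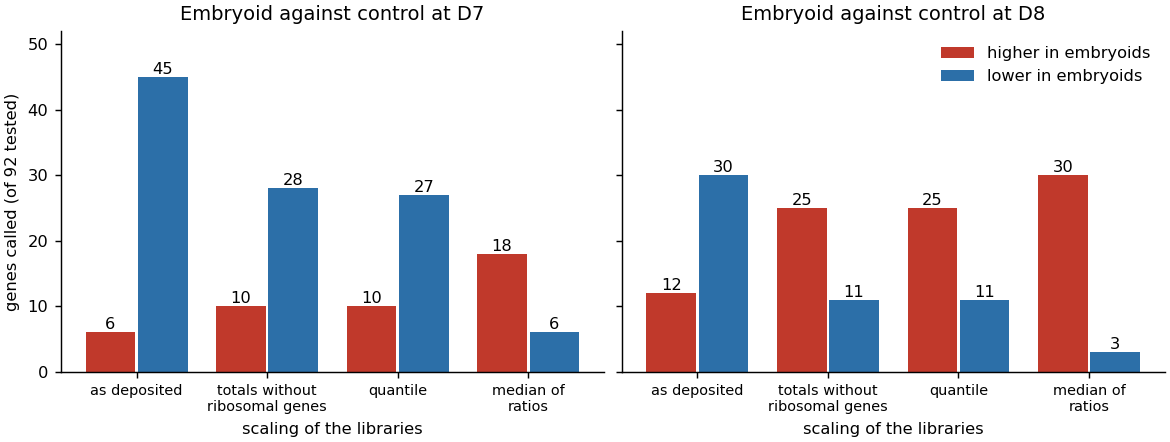
Number of the 92 tested members called higher (red) or lower (blue) in embryoids than in controls at D7 (left) and D8 (right), at an adjusted p under 0.05, under 4 scalings of the libraries. The balance moves from 6 higher and 45 lower with the deposited values to 18 higher and 6 lower with median-of-ratios scaling at D7, and from 12 and 30 to 30 and 3 at D8.

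Complex IV is the oxidase that hands electrons to oxygen. Forms known from muscle and lung were higher in embryoids. Cox6a2, the heart and skeletal muscle form of subunit VIa (GRCm38.p6 chr7:128205435-128206366), had 17, 11 and 7 TPM in D8 embryoids, against 0, 0 and 0 TPM in D8 controls. At D7 it had 1, 2 and 1 TPM in D7 embryoids, against 0, 0 and 0 TPM in D7 controls. The gene was thus listed in all 6 embryoid libraries and at 0 in all 6 control libraries, and no fold is given against a group at 0. On the log2(TPM + 1) scale the difference was 3.58 ± 0.26 (SE) at D8 (adjusted p = 2.48e-07) and 1.19 ± 0.26 (SE) at D7 (adjusted p = 0.00153). These values depend on the pseudocount, and at D7 it did not pass with a pseudocount of 5 (0.34, adjusted p = 0.0918).

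Cox4i2, the form of subunit IV known from lung and linked to oxygen sensing (GRCm38.p6 chr2:152753916-152765039), had 10, 6 and 6 TPM in D8 embryoids, against 0, 0 and 0 TPM in D8 controls. At D7 the values were 2, 3 and 3 TPM in D7 embryoids, against 0, 0 and 0 TPM in D7 controls. No control library listed the gene and every embryoid library did, with higher values at D8. The log2(TPM + 1) difference was 3.02 ± 0.18 (SE) at D8 (adjusted p = 7.54e-08) and 1.86 ± 0.18 (SE) at D7 (adjusted p = 4.68e-06).

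Cox8b, a heart and skeletal muscle form of subunit VIII (GRCm38.p6 chr7:140898942-140900446), had 3, 4 and 2 TPM in D8 embryoids, against 0, 0 and 0 TPM in D8 controls. It was listed at 0 in all D7 libraries of both conditions, so that only D8 embryoids held it (difference 1.97 ± 0.18 (SE), adjusted p = 2.32e-06). Cox6a2, Cox4i2 and Cox8b were tested only because embryoid groups passed the filter. Their groups at 0 add no spread to the shared estimate. The SE and adjusted p of these genes can therefore understate the spread among embryoid libraries. Cox7a1, the muscle form of subunit VIIa (GRCm38.p6 chr7:30184171-30186030), was present in every library and had 15, 14 and 9 TPM in D8 embryoids, against 3, 6 and 4 TPM in D8 controls (log2 fold change 1.37 ± 0.26 (SE), adjusted p = 0.000665). Its D8 groups did not overlap, whereas at D7 they did, with 4, 8 and 4 TPM in D7 embryoids, against 5, 5 and 5 TPM in D7 controls.

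**Figure D4:**
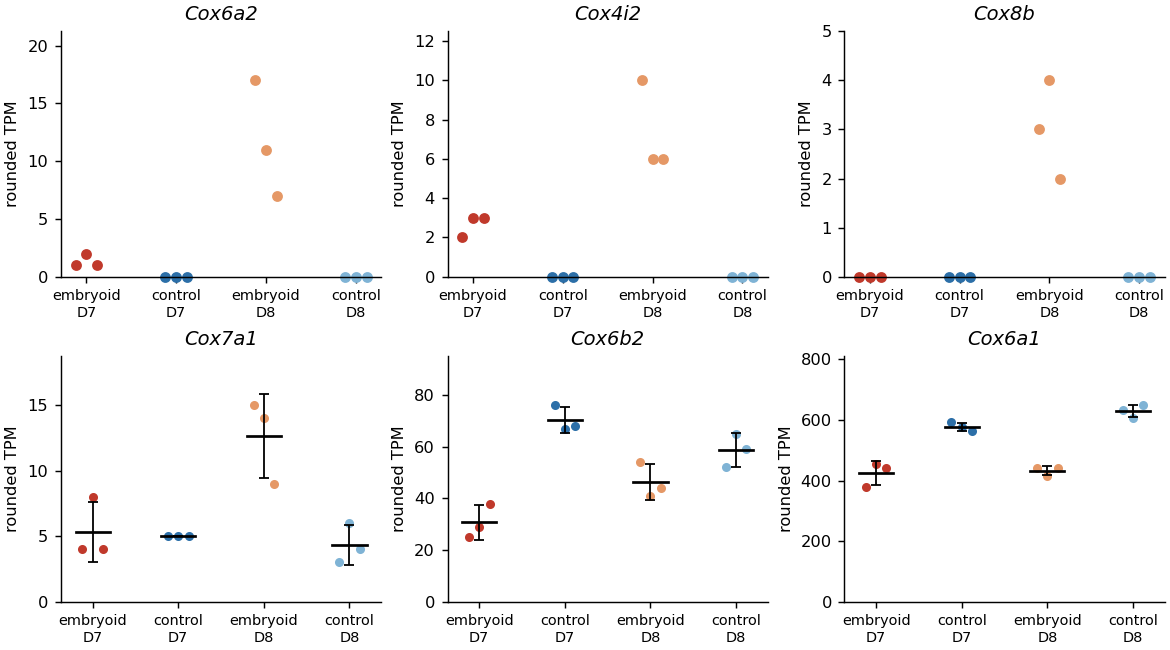
Rounded TPM of 5 tissue forms of complex IV subunits (Cox6a2, Cox4i2, Cox8b, Cox7a1 and Cox6b2) and of the general subunit Cox6a1 in embryoids and controls at D7 and D8. Points are libraries; bars are the mean ± SD (n = 3) for the 3 genes listed above 0 in every library. Cox6a2 reaches 7 to 17 TPM, Cox4i2 6 to 10, Cox8b 2 to 4 and Cox7a1 9 to 15 in D8 embryoids, while Cox6b2 and Cox6a1 are lower in D7 embryoids than in D7 controls.

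The general forms still supplied nearly all the transcripts of each pair. Cox6a2 made up 3.70, 2.58 and 1.57% of the summed Cox6a1 and Cox6a2 TPM in D8 embryoids, and none of it in D8 controls. Cox7a1 made up 6.05, 5.88 and 4.04% of Cox7a1 plus Cox7a2 in D8 embryoids, against 1.48, 2.75 and 1.90% in D8 controls. Cox4i2 reached 0.931, 0.567 and 0.571% of the Cox4 pair and Cox8b 0.737, 1.02 and 0.549% of Cox8 transcripts in the same embryoids. The general form was thus the main one in each of these 4 families in every library.

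Markers of several cell types differed between the same libraries. Of 12 heart genes, 9 were tested and 8 rose at D7 and 9 at D8, and their summed level was 537 to 1334 TPM in D7 embryoids and 15 to 18 TPM in D7 controls, and 1157 to 3111 TPM in D8 embryoids and 8 to 13 TPM in D8 controls. Nppa, Ttn and Ryr2 were at 0 or 1 TPM throughout. By replicate the D8 embryoid sums were 2453, 3111 and 1157 TPM, and replicate 3, with the lowest sum, also had the lowest Cox6a2, Cox7a1 and Cox8b and shared the lowest Cox4i2. Replicate 2, with the highest sum, had the highest Cox8b, but replicate 1 had the highest Cox6a2, Cox4i2 and Cox7a1. At D7 the sums were 537, 1334 and 579 TPM, and replicate 2 had the highest Cox6a2 and Cox7a1. Heart genes were thus already high in D7 embryoids, where Cox8b was at 0 and Cox7a1 overlapped the controls. The same replicates also stood out over the tested members in general. D7 embryoid replicate 2 was the highest of its group for 73 of them. D8 embryoid replicate 1 was the highest of its group for 51 and replicate 3 for only 5. That replicate 3 lay at -0.04 (log2, median over members) from its group mean. Whether the replicate order of these tissue forms differed from that of other members was not tested. Skeletal muscle genes summed to 14 to 22 TPM in D8 embryoids and 3 to 6 TPM in D8 controls, with Myod1, Myf5 and Ckm at 0 in every library, and Ucp1, which marks brown fat, was also at 0. Of the 5 genes listed for brown fat and smooth muscle, only 2 were tested, the smooth muscle genes Cnn1 and Tagln. Both rose on both days, and Cnn1 had 10, 11 and 6 TPM in D8 embryoids, against 0, 0 and 0 TPM in D8 controls. Myh11, the other smooth muscle gene of that list, had a mean above 1 in no group. All 7 endothelial genes rose on both days (medians 3.405 and 3.72), with sums of 150 to 185 TPM in D8 embryoids and 5 to 6 TPM in D8 controls. Of 6 tested red blood cell genes 5 rose at D7 and 6 at D8, summing to 366 to 1563 TPM in D8 embryoids and 1 to 2 TPM in D8 controls. All 7 gut endoderm genes rose on both days, and all 7 neuronal genes fell, to sums of 273 to 568 TPM in D8 embryoids, against 2009 to 2129 TPM in D8 controls. Genes of the hypoxia response moved too: of 9 tested, 7 rose and 1 fell at D7 and 8 rose and 1 fell at D8. The part of these cells or responses in the values of Cox6a2, Cox8b, Cox7a1 and Cox4i2 was not tested.

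Promoter sequences are shown for the 2 pairs in which a muscle form that rose at D8 and its general partner were both in the RefSeq table (GRCm38.p6, 250 bases before to 50 after the annotated start, 5′ to 3′ on the gene's strand). Capitals mark matches, in Cox8b to TATAAA, the letters of a TATA box, and in Cox8a to CCGGAAG (ETS motif) on the other strand. Cox7a1 and Cox7a2 held no match to either, nor to GCATGCGC (core of the NRF1 motif), AAGATGGC (YY1) or the MEF2 motif on either strand.
Cox8b (chr7:140900397-140900696, minus strand): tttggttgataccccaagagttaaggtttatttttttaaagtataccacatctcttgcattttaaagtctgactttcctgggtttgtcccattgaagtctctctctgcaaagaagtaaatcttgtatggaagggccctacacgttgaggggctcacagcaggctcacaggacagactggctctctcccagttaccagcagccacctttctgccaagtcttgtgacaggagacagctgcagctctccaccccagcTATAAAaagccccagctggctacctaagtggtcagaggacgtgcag
Cox8a (chr19:7217567-7217866, minus strand): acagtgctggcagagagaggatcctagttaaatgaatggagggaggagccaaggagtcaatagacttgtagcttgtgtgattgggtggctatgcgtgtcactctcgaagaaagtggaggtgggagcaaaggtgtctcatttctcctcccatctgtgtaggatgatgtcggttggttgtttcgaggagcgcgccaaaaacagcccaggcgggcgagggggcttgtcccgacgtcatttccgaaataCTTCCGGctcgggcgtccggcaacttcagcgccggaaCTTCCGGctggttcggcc
Cox7a1 (chr7:30183921-30184220, plus strand): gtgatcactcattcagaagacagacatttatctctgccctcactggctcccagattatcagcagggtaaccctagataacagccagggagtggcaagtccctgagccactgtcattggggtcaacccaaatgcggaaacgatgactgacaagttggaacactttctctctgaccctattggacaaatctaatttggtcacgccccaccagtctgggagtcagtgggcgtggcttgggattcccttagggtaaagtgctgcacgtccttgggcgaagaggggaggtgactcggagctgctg
Cox7a2 (chr9:79759804-79760103, minus strand): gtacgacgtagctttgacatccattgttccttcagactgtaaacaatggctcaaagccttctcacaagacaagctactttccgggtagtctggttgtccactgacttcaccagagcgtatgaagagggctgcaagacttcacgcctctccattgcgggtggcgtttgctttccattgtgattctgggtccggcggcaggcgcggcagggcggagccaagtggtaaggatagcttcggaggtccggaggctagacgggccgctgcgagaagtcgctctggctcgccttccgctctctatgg
The muscle forms had fewer CpG dinucleotides in this window, 2 in Cox8b and 7 in Cox7a1, than the general forms, 19 in Cox8a and 20 in Cox7a2. Over the 74 members with a promoter in the table the median was 19 CpG, against 7 over all 27025 genes, and 70 of 74 members held at least 10. Cox6a2 and Cox4i2 were not in the table used.

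The same 74 promoters were searched on both strands for the 5 motifs. ETS was found in 18 (24.3%, against 9.93% of all promoters), YY1 in 10 (13.5%, against 3.19%) and the NRF1 core in 12 (16.2%, against 3.05%). A 10-letter form of the NRF1 motif that contains this core was found in 7 (9.46%, against 1.07%). TATA was found in 7 (9.46%, against 15.7%) and MEF2 in none, against 3.7% of all promoters. The 7 promoters with the longer NRF1 form belong to Atp5g2, Atp5k, Cox6a1, Ndufa11, Ndufaf4, Ndufaf5 and Uqcrc1. A match describes these letters only, and members share a high CpG content that such motifs contain in part.

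Other complex IV genes were lower in embryoids. Cox6b2, a form of subunit VIb known from testis (GRCm38.p6 chr7:4751792-4753094), had 25, 29 and 38 TPM in D7 embryoids, against 76, 67 and 68 TPM in D7 controls (log2 fold change -1.19 ± 0.14 (SE), adjusted p = 2.31e-05). The D7 groups were far apart, and Cox6b2 made up 7.51, 7.23 and 10.95% of Cox6b transcripts in D7 embryoids, against 16.6, 14.4 and 14.7% in D7 controls. At D8 the groups overlapped, with 54, 41 and 44 TPM in D8 embryoids, against 52, 65 and 59 TPM in D8 controls (log2 fold change -0.34 ± 0.14 (SE), adjusted p = 0.0557). Genes of germ cells and testis (Ddx4, Dazl, Prm1, Tnp1, Acrv1 and Pgk2) were at 0 in all libraries. Cox6a1, the general partner of Cox6a2, had 442, 416 and 440 TPM in D8 embryoids, against 634, 606 and 648 TPM in D8 controls (log2 fold change -0.54 ± 0.060 (SE), adjusted p = 9.04e-06). At D7 it had 380, 455 and 441 TPM in D7 embryoids, against 592, 575 and 565 TPM in D7 controls (log2 fold change -0.44 ± 0.060 (SE), adjusted p = 5.22e-05). It was lower in every embryoid library than in any control library of its day, although at D7 it missed the threshold with median-of-ratios scaling (-0.21, adjusted p = 0.064).

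The other general subunits of complex IV showed no change of this size. Over the 16 tested genes of the complex, tissue forms included, 2 rose and 4 fell at D7 (12.5% and 25%, background 20.4% and 44.8%). At D8, 4 rose and 1 fell (25% and 6.25%, background 23.9% and 44.4%). With median-of-ratios scaling 4 were higher and 1 lower at D7 (background 31.7% and 28.3%). At D8 that scaling gave 10 higher and 1 lower (background 35.1% and 29.6%). Quantile normalization gave 8 higher and 2 lower at D8 (background 30.2% and 38.2%). Totals without ribosomal protein genes gave 7 higher and 1 lower at D8 (background 28.7% and 36.4%). Cox4i1, the most abundant, had 1064, 1052 and 1044 TPM in D8 embryoids, against 1022, 1056 and 1079 TPM in D8 controls (log2 fold change 0.00 ± 0.071 (SE), adjusted p = 1), and the groups overlapped on both days. It was called higher at D7 with median-of-ratios scaling (0.29) and lower at D8 with quantile normalization (-0.15). Cox5a, Cox5b, Cox6c, Cox7a2, Cox7b, Cox7c and Cox8a passed the test on neither day, with log2 fold changes of -0.15 to 0.04 at D7 and -0.03 to 0.12 at D8. With median-of-ratios scaling, however, Cox5a (0.28), Cox6c (0.32), Cox7a2 (0.33), Cox7b (0.31) and Cox7c (0.33) were called higher at D8, and Cox5a at D7 as well (0.27). Quantile normalization also called Cox5a (0.15), Cox6c (0.20), Cox7a2 (0.23) and Cox7b (0.23) higher at D8. Totals without ribosomal protein genes did so for Cox5a (0.16), Cox7a2 (0.21) and Cox7b (0.18). Cox6b1 fell at D7 (log2 fold change -0.25 ± 0.068 (SE), adjusted p = 0.00597) and did not pass at D8 (-0.12, adjusted p = 0.138). Its D7 call was lost with median-of-ratios scaling (-0.03) and with totals without ribosomal protein genes (-0.18). Ndufa4 is named for complex I but found in complex IV of mammals. By their symbols, it and its hypoxia-linked relative Ndufa4l2 were counted with complex I in all counts and shares. Ndufa4 did not pass (-0.03 at D7 and 0.02 at D8). Ndufa4l2 stayed at 0 to 4 TPM and did not pass either (0.19 at D7 and 0.64 at D8).

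In complex I, which takes electrons from NADH, 3 of 47 members rose and 23 fell at D7, and 4 rose and 19 fell at D8. The shares that fell, 48.9% and 40.4%, were near the 44.8% and 44.4% of all tested genes, and fewer rose than the 20.4% and 23.9% of all genes. With median-of-ratios scaling 9 rose and 3 fell at D7 (background 31.7% and 28.3%). At D8 that scaling had 9 higher and 1 lower (background 35.1% and 29.6%). Ndufc2, an accessory membrane subunit, had 172, 170 and 154 TPM in D8 embryoids, against 123, 127 and 128 TPM in D8 controls (log2 fold change 0.39 ± 0.058 (SE), adjusted p = 0.000104). At D7 it had 136, 152 and 149 TPM in D7 embryoids, against 115, 103 and 109 TPM in D7 controls (log2 fold change 0.41 ± 0.058 (SE), adjusted p = 7.26e-05), so the embryoid libraries exceeded every control library on both days. Ndufa9, an accessory subunit beside the quinone site, had 300, 286 and 297 TPM in D8 embryoids, against 254, 258 and 255 TPM in D8 controls (log2 fold change 0.20 ± 0.042 (SE), adjusted p = 0.00108), and it also rose at D7 (0.23, adjusted p = 0.000439). Both rose under all 4 scalings on both days.

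Smaller rises at D8 were those of Ndufv3 and Ndufab1. Ndufv3, an accessory subunit of the NADH-binding module, had 150, 146 and 147 TPM in D8 embryoids, against 114, 132 and 130 TPM in D8 controls (log2 fold change 0.24 ± 0.072 (SE), adjusted p = 0.0121). Ndufab1, the mitochondrial acyl carrier protein, had 231, 224 and 238 TPM in D8 embryoids, against 207, 201 and 204 TPM in D8 controls (log2 fold change 0.18 ± 0.059 (SE), adjusted p = 0.0192). Groups did not overlap for either gene, but the call of Ndufv3 was lost without control replicate 1 (adjusted p = 0.0583) and that of Ndufab1 without control replicate 2 (0.0571) or embryoid replicate 3 (0.0685). Ndufv1, the core subunit that binds NADH, passed narrowly at D7 (0.09, adjusted p = 0.0499) and missed the threshold in 11 of the 12 fits that left out 1 library, with adjusted p of up to 0.192.

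Among the members of complex I that fell, Ndufs3, a core subunit of the arm that carries electrons to quinone, had 222, 242 and 229 TPM in D7 embryoids, against 329, 305 and 303 TPM in D7 controls (log2 fold change -0.43 ± 0.044 (SE), adjusted p = 5.77e-06). It had 250, 245 and 233 TPM in D8 embryoids, against 300, 302 and 296 TPM in D8 controls (log2 fold change -0.30 ± 0.044 (SE), adjusted p = 8.67e-05), with no overlap on either day. The D8 call was lost with median-of-ratios scaling (-0.09, adjusted p = 0.332). Ndufc1 and Ndufa3, small accessory subunits, fell at D7 by 0.48 (adjusted p = 6.23e-05) and by 0.57 (adjusted p = 0.00219), both calls being lost with median-of-ratios scaling (adjusted p = 0.0522 and 0.0797). At D8 Ndufa3 did not pass (-0.15, adjusted p = 0.318). Ndufa11, a membrane subunit, had 28, 31 and 32 TPM in D8 embryoids, against 36, 39 and 41 TPM in D8 controls (log2 fold change -0.34 ± 0.071 (SE), adjusted p = 0.00118). It fell at D7 too (-0.31, adjusted p = 0.00234), and neither call was kept with median-of-ratios or quantile scaling.

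Ndufs5, a small accessory subunit, had one of the highest D7 fold changes without passing the test. It had 6, 7 and 7 TPM in D7 embryoids, against 6, 5 and 5 TPM in D7 controls (log2 fold change 0.28 ± 0.23 (SE), adjusted p = 0.305). At D8 it had 3, 7 and 6 TPM in D8 embryoids, against 8, 6 and 5 TPM in D8 controls (log2 fold change -0.25 ± 0.23 (SE), adjusted p = 0.344). The groups overlapped on both days. Ndufa5, another accessory subunit, had 101, 142 and 108 TPM in D7 embryoids, against 102, 100 and 99 TPM in D7 controls (log2 fold change 0.20 ± 0.098 (SE), adjusted p = 0.0874), again with overlap, and it passed under the other 3 scalings (adjusted p = 0.0183 to 0.0411). Ndufa12 is a relative of the assembly factor Ndufaf2. Ndufa12 had 195, 241 and 222 TPM in D7 embryoids, against 258, 263 and 264 TPM in D7 controls (log2 fold change -0.26 ± 0.068 (SE), adjusted p = 0.00579), a call that no other scaling kept, and did not pass at D8 (-0.15, adjusted p = 0.0652), while Ndufaf2 passed on neither day.

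Of the 8 assembly factors of complex I among the members, none rose, 5 fell at D7 and 4 fell at D8. Over all tested genes 20.4% rose and 44.8% fell at D7, and 23.9% rose and 44.4% fell at D8. With median-of-ratios scaling 3 rose and 2 fell at D7 (background 31.7% and 28.3%). At D8 that scaling had 1 higher and 1 lower (background 35.1% and 29.6%). Ndufaf3 had 10, 11 and 10 TPM in D7 embryoids, against 19, 17 and 19 TPM in D7 controls (log2 fold change -0.77 ± 0.075 (SE), adjusted p = 4.18e-06). At D8 it had 15, 14 and 13 TPM in D8 embryoids, against 21, 21 and 23 TPM in D8 controls (log2 fold change -0.60 ± 0.075 (SE), adjusted p = 2.68e-05). It was the lowest relative to controls of all complex I members on both days and fell under all 4 scalings. Ndufaf5, an enzyme that modifies a core subunit, had 12, 11 and 12 TPM in D7 embryoids, against 17, 15 and 16 TPM in D7 controls (log2 fold change -0.42 ± 0.069 (SE), adjusted p = 0.000218). Ndufaf8, a partner of Ndufaf5, had 21, 20 and 22 TPM in D8 embryoids, against 27, 27 and 30 TPM in D8 controls (log2 fold change -0.40 ± 0.088 (SE), adjusted p = 0.00183). Both calls were also made on the other day, but at D8 neither gene passed with median-of-ratios or quantile scaling, and Ndufaf8 did not at D7 either. Ndufaf1, Ndufaf2, Ndufaf4 and Ndufaf6 lay between -0.19 and 0.08 on the 2 days, and of these only Ndufaf1 at D7 passed (adjusted p = 0.0243).

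Complex II is also the succinate dehydrogenase of the tricarboxylic acid cycle. None of its 4 subunits rose and 3 fell at D7 (0% and 75%, background 20.4% and 44.8%). At D8, 1 rose and 3 fell (25% and 75%, background 23.9% and 44.4%). With median-of-ratios scaling 1 rose and 1 fell at D7 (background 31.7% and 28.3%). At D8 that scaling had 1 higher and none lower (background 35.1% and 29.6%). Sdhb, the iron-sulfur subunit, had 276, 280 and 282 TPM in D8 embryoids, against 348, 356 and 353 TPM in D8 controls (log2 fold change -0.33 ± 0.039 (SE), adjusted p = 1.28e-05). The flavoprotein gene Sdha had 277, 243 and 270 TPM in D7 embryoids, against 323, 329 and 327 TPM in D7 controls (log2 fold change -0.31 ± 0.043 (SE), adjusted p = 6.76e-05). Sdhd, a membrane anchor, had 266, 273 and 264 TPM in D8 embryoids, against 248, 242 and 231 TPM in D8 controls (log2 fold change 0.16 ± 0.045 (SE), adjusted p = 0.00938). Sdhc, the other anchor and the most abundant of the 4, had 400, 404 and 394 TPM in D8 embryoids, against 442, 458 and 435 TPM in D8 controls (log2 fold change -0.16 ± 0.031 (SE), adjusted p = 0.000828). Thus with the deposited values Sdhd rose at D8 where Sdhb, Sdha and Sdhc fell. With median-of-ratios scaling Sdhb kept its sign without passing (-0.12, adjusted p = 0.173), Sdha and Sdhc were positive without passing (0.08 and 0.06), and Sdhd still rose. With totals without ribosomal protein genes only Sdhb still fell at D8 (-0.25), and Sdhd rose (0.24). The D8 call of Sdha was also lost without control replicate 1 (adjusted p = 0.0502).

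In complex III, which passes electrons on to cytochrome c, none rose, 6 of 8 fell at D7 and 3 fell at D8 (75% and 37.5%, background 44.8% and 44.4%). Over all tested genes 20.4% rose at D7 and 23.9% at D8. With median-of-ratios scaling 1 rose and none fell at D7 (background 31.7% and 28.3%). At D8 that scaling had 3 higher and 1 lower (background 35.1% and 29.6%). Uqcrq, a small subunit bound to cytochrome b, had 113, 107 and 100 TPM in D8 embryoids, against 144, 139 and 161 TPM in D8 controls (log2 fold change -0.47 ± 0.070 (SE), adjusted p = 0.000108), with no overlap between the groups. It also fell at D7 (-0.30, adjusted p = 0.00296), a call that was lost with median-of-ratios (-0.07, adjusted p = 0.568) and quantile scaling (-0.18, adjusted p = 0.0708). Uqcrc1, a core protein, and Uqcrfs1, the Rieske protein, fell by 0.13 (adjusted p = 0.00261) and by 0.16 (adjusted p = 0.00549) at D8, and neither passed under the other 3 scalings. Uqcrh, the hinge protein and most abundant member, had 306, 296 and 271 TPM in D8 embryoids, against 253, 258 and 267 TPM in D8 controls and did not pass (0.16, adjusted p = 0.0671), though it did under the other 3 scalings. Outside the member list, Cycs, cytochrome c itself, rose on both days (0.38 and 0.26) and did so under all 4 scalings. Cyc1, the cytochrome c1 subunit of complex III, fell (-0.10 and -0.13), but it passed under none of the other 3 scalings and was positive with median-of-ratios scaling (0.13 and 0.08).

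In complex V, the ATP synthase, 1 of 17 rose and 9 fell at D7 (5.88% and 52.9%, background 20.4% and 44.8%) and 3 rose and 4 fell at D8 (17.6% and 23.5%, background 23.9% and 44.4%). With median-of-ratios scaling 3 rose and 1 fell at D7 (background 31.7% and 28.3%). At D8 that scaling had 7 higher and none lower (background 35.1% and 29.6%). Atp5b had the highest level of all 94 genes, with 1809, 1827 and 1735 TPM in D8 embryoids, against 1642, 1641 and 1630 TPM in D8 controls (log2 fold change 0.13 ± 0.027 (SE), adjusted p = 0.00127). At D7 it had 1806, 1844 and 1789 TPM in D7 embryoids, against 1618, 1634 and 1619 TPM in D7 controls (log2 fold change 0.16 ± 0.027 (SE), adjusted p = 0.000304). The embryoid libraries were higher on both days in the deposited values, yet quantile normalization gave no call at D7 (0.01, adjusted p = 0.883) and a lower level at D8 (-0.25, adjusted p = 0.000293). Atp5a1, the partner alpha subunit, passed on neither day (0.02 and 0.05), but it was called higher on both days with median-of-ratios scaling (0.25 and 0.27) and with totals without ribosomal protein genes (0.09 and 0.14).

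Atp5l, subunit g of the membrane part, had 174, 226 and 180 TPM in D7 embryoids, against 299, 284 and 295 TPM in D7 controls (log2 fold change -0.61 ± 0.081 (SE), adjusted p = 4.88e-05). At D8 the same gene had 269, 252 and 247 TPM in D8 embryoids, against 292, 302 and 311 TPM in D8 controls (log2 fold change -0.24 ± 0.081 (SE), adjusted p = 0.0216), still without overlap, but that call was lost under each of the other 3 scalings and without control replicate 2 or 3 or embryoid replicate 2 or 3 (adjusted p = 0.0513 to 0.0719). Atp5f1 fell on both days (-0.23 on each, adjusted p = 0.00033 at D7 and 0.000241 at D8), as did Atp5h (-0.24 and -0.19) and Atp5e (-0.36 and -0.26), a subunit of the central stalk. None of these 3 genes passed with median-of-ratios scaling on either day. The 3 genes Atp5g1, Atp5g2 and Atp5g3 encode the same mature c-ring protein. Atp5g3 supplied 51.1 ± 0.691% of their sum in D8 embryoids and 51.9 ± 0.594% in D8 controls (SD, n = 3), and Atp5g2 35.3 ± 1.47% in D8 embryoids and 34.6 ± 0.573% in D8 controls. The share of Atp5g1 was 14.6, 14.9 and 15.5% in D7 embryoids, against 13.7, 14.2 and 14.1% in D7 controls. These D7 values did not overlap, while those of D8 did.

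Atp5g2 itself rose at D8, with 628, 576 and 575 TPM in D8 embryoids, against 529, 552 and 515 TPM in D8 controls (log2 fold change 0.16 ± 0.055 (SE), adjusted p = 0.0258), and the groups did not overlap. The call was lost without control replicate 1 (adjusted p = 0.0643), control replicate 3 (0.0906) or embryoid replicate 1 (0.107). Atp5c1, the gamma subunit that turns within the enzyme, had 602, 583 and 582 TPM in D8 embryoids, against 534, 548 and 540 TPM in D8 controls (log2 fold change 0.12 ± 0.042 (SE), adjusted p = 0.0207). At D7 it had 536, 534 and 478 TPM in D7 embryoids, against 555, 554 and 554 TPM in D7 controls (log2 fold change -0.11 ± 0.042 (SE), adjusted p = 0.0436). With the deposited values embryoids were thus on the higher side at D8 and the lower side at D7, both by less than 0.13 (log2). The D8 call was lost without control replicate 1, control replicate 3 or embryoid replicate 1 (adjusted p = 0.0515 to 0.0678). The D7 call was lost in 9 of the 12 fits that left out 1 library, with adjusted p of up to 0.157. With median-of-ratios scaling the D7 value turned positive without passing (0.12, adjusted p = 0.164). Totals without ribosomal protein genes also lost the D7 call (-0.03, adjusted p = 0.598).

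For 6 members the gap between the conditions was not the same on both days, each time higher at D8. They were 6.52% of members, against 5.37% of all tested genes, and no member had a lower gap at D8, against 3.71%. These were Cox6a2 (2.39, adjusted p = 0.00285), Cox8b (1.97, 0.00147), Cox7a1 (1.35, 0.0453), Cox4i2 (1.16, 0.0211), Cox6b2 (0.85, 0.0272) and Atp5c1 (0.23, 0.0354), of which 5 are tissue forms of complex IV. Cox7a1 lost this call with median-of-ratios (adjusted p = 0.0662) and quantile scaling (0.0658), Atp5c1 with median-of-ratios scaling (0.237) and Cox4i2 with quantile scaling (0.0611). For Cox6a2, Cox8b and Cox4i2, at 0 in all controls, this is the same quantity as the change between D8 and D7 embryoids. The limit on their SE and adjusted p given above holds here too. Without embryoid replicate 2 of D7, 25 members changed; without any 1 of the D7 control libraries or D8 embryoid replicate 1, 3 did, and without D8 control replicate 1 or 3, 2 did. Of these fits, all 12 kept the calls of Cox6a2 and Cox8b, while Cox7a1 lost its call in 9, Atp5c1 in 9, Cox6b2 in 6 and Cox4i2 in 2, with adjusted p of up to 0.11, 0.0891, 0.073 and 0.0544.

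Between D8 and D7 embryoids, 13 members rose and 2 fell (background 16.1% and 4.52%). Besides Cox6a2, Cox8b, Cox4i2 and Cox7a1, those that rose included Cox6b2, with 54, 41 and 44 TPM in D8 embryoids, against 25, 29 and 38 TPM in D7 embryoids (log2 fold change 0.59 ± 0.14 (SE), adjusted p = 0.014), and Ndufv3, with 150, 146 and 147 TPM in D8 embryoids, against 101, 123 and 110 TPM in D7 embryoids (log2 fold change 0.41 ± 0.072 (SE), adjusted p = 0.0026). The groups did not overlap for either gene. Atp5l (0.41, adjusted p = 0.00454) and Ndufaf3 (0.40, adjusted p = 0.00351), both lowest in D7 embryoids, also rose, and Cox7a2l, which joins complexes III and IV into supercomplexes, rose by 0.28 (adjusted p = 0.00209). The members that fell were Ndufaf2 (-0.24) and Ndufaf6 (-0.21). Without D7 embryoid replicate 2 the count was 35 instead of 15.

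In controls, 6 members rose and 6 fell between D8 and D7 (background 17.4% and 8.03%). Ndufs8, a core iron-sulfur subunit of complex I, had 130, 141 and 142 TPM in D8 controls, against 112, 110 and 107 TPM in D7 controls (log2 fold change 0.32 ± 0.049 (SE), adjusted p = 0.000679), and it rose in embryoids as well, with 119, 127 and 121 TPM in D8 embryoids, against 99, 107 and 98 TPM in D7 embryoids (log2 fold change 0.27 ± 0.049 (SE), adjusted p = 0.00288). Its days did not overlap in either condition. Ndufc2 rose by 0.18 in embryoids (adjusted p = 0.0474) and by 0.21 in controls (adjusted p = 0.0216), and Ndufaf6 fell by 0.21 in embryoids (adjusted p = 0.0253) and by 0.24 in controls (adjusted p = 0.0106). The count of 12 in controls became 3 to 6 without any 1 of the control libraries and 23 without D7 embryoid replicate 2. That library enters here through the shared estimate of spread and the set of tested genes.

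Other genes of mitochondria and of energy metabolism set the scale for these values. Over all tested genes 20.4% rose and 44.8% fell at D7, and 23.9% rose and 44.4% fell at D8. Of 78 mitochondrial ribosomal protein genes, 16 rose and 19 fell at D7 and 19 rose and 28 fell at D8, with medians of -0.01 and -0.06. Of 34 assembly factors of complexes II to V, 2 rose and 14 fell at D7 and 3 rose and 18 fell at D8 (medians -0.11 and -0.18), and of 10 complex I assembly factors with other names, 1 rose and 7 fell and then 1 rose and 6 fell. The 14 genes of the tricarboxylic acid cycle had medians of 0.00 and 0.03, with 3 higher and 4 lower at D7 and 3 higher and 1 lower at D8. With median-of-ratios scaling the 3 last lists turned to the higher side or to an even split at D7. There 10 of 34 were higher and 6 lower, 3 of 10 higher and 2 lower, and 11 of 14 higher and none lower. Mitochondrial ribosomal protein genes had 39 of 78 higher and 2 lower. Over all tested genes this scaling gave 31.7% higher and 28.3% lower at D7. Genes of mitochondrial protein import had 10 of 18 higher and 3 lower at D7 and 9 higher and 5 lower at D8, with medians of 0.30 and 0.19. Under each of the other scalings 10 to 12 were higher, against 24 to 35.1% of all tested genes.

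The 18 genes of glycolysis had larger log2 fold changes than most members. At D7 16 rose and 2 fell with a median of 1.101, and at D8 16 rose and 1 fell with a median of 1.53. A rise of more than 1 (log2) was reached by 10 at D7 and 12 at D8, against 7.57% and 10.3% of all tested genes. Under the other scalings 14 to 17 rose on each day, against 24 to 35.1% of all tested genes. Their summed level was 15762 to 18962 TPM in D7 embryoids and 9123 to 9455 TPM in D7 controls, and 20313 to 22082 TPM in D8 embryoids and 7752 to 9090 TPM in D8 controls. Ldha, which turns pyruvate into lactate, rose by 3.32 at D7 and 3.30 at D8. Of 16 tested regulators of mitochondrial transcription and biogenesis, 4 rose and 6 fell at D7 and 3 rose and 5 fell at D8. Pprc1, a coactivator related to PGC1, was higher (0.80 and 0.59). Esrrb, an estrogen-related receptor of pluripotent cells, was lower (-2.27 and -2.35). The balance of the 16 turned with scaling. Median-of-ratios scaling gave 6 higher and 2 lower at D7 (background 31.7% and 28.3%) and 6 higher and 3 lower at D8 (background 35.1% and 29.6%). Quantile normalization gave 6 higher and 2 lower at D7 (background 28.2% and 33.5%) and 7 higher and 3 lower at D8 (background 30.2% and 38.2%).

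Transcript length was set beside these results, since 69 of the 93 members with a known mRNA length are shorter than 1000 bases. The 67 tested short members had medians of -0.16 at D7 and -0.12 at D8, and the 24 longer ones -0.11 and -0.03. Over 2104 other short genes outside the ribosomal proteins the medians were -0.14 on both days. Ndufb4c, listed beside Ndufb4, held 26.5 ± 0.201% of their sum in D8 embryoids and 29.7 ± 1.66% in D8 controls (SD, n = 3), and how reads of such near-identical copies were assigned was not stated, so both genes are uncertain.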

How the data were processed

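RNA sequencing values of 12 libraries were used, 3 for each of 4 groups. The deposited table is called a score in the record of units because its unit was inferred: whole numbers taken as the authors' TPM, rounded before deposit. Per the labels, reads were processed with STAR 2.6.1a, SAMtools 0.1.20, featureCounts and DESeq2 on mm10; the sources do not state strand use or depth, which leaves counting error unknown. Nothing in the labels says that replicates were separate cultures, while the study's figure captions call them biologically independent samples. The p-values measure the spread between these pools.

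Values were taken as log2(TPM + 1), with a pseudocount of 1, and 13751 genes whose mean exceeded 1 in some group were fitted in limma 3.58.1 (R 4.3.3, statmod 1.5.0) with 4 group means and trended, robust variances. P-values were adjusted by Benjamini-Hochberg over all tested genes and called under 0.05. A second call added an absolute log2 fold change above 1. The fit was also run on simulated data, whose outcome is not given here. Members and gene lists were chosen with earlier results of these data known. A rule chose the members described one by one. It named the 6 with the highest and the 6 with the lowest log2 fold change on each day. It also named the most abundant member of each complex, isoform families and Ndufa4. Members whose difference changed between days and those that moved most between days were named as well. Each library's value and full statistics were given for many of these. Fewer values were given for others, such as Ndufa3, Ndufc1, Ndufa4, Ndufa4l2 and several general forms of isoform families. Ndufs3, Sdha, Sdhb, Sdhd, Ndufaf5, Ndufv1, Ndufv3, Ndufab1 and Atp5g2 were added after their values were seen. The result of 1 member that this rule names is not reported here. Alternatives were pseudocounts of 0.5 and 5, no filter or one above 5, median-of-ratios scaling, quantile normalization, totals without cytosolic ribosomal protein genes, untrended variances, a replicate block, only the libraries compared, and leaving out each library. The short NRF1 core was added after the longer form had been searched. Python 3.11.15 and matplotlib 3.10.9 made the figures. Gene positions (92 of 94 members matched), promoters (74 matched) and mRNA lengths (93) came from RefSeq (GRCm38.p6) and GENCODE vM21.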

Additional observations from a re-analysis of the deposited data

Results flagged for a closer look

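For 6 genes the difference between embryoids and controls was not the same on both days by the test of the change itself (D8 difference minus D7 difference, limma, log2 scale). All 6 changed upward and were 6.52% of tested members, near the 5.37% of all tested genes that did so. The change was 2.39 for Cox6a2 (adjusted p = 0.00285), 1.97 for Cox8b (adjusted p = 0.00147), 1.35 for Cox7a1 (adjusted p = 0.0453), 1.16 for Cox4i2 (adjusted p = 0.0211), 0.85 for Cox6b2 (adjusted p = 0.0272) and 0.23 for Atp5c1 (adjusted p = 0.0354). Only Cox6a2 and Cox8b kept the call under all 4 scalings and in each of the 12 fits that left out 1 library. Both were at 0 in all controls, so their adjusted p can understate the spread among embryoids. Cox7a1 lost it with median-of-ratios (adjusted p = 0.0662) and quantile scaling (0.0658), Atp5c1 with median-of-ratios (0.237) and Cox4i2 with quantile scaling (0.0611), and Cox7a1, Atp5c1, Cox6b2 and Cox4i2 lost it in 9, 9, 6 and 2 of the 12 fits. In Cox6a2, Cox8b, Cox7a1 and Cox4i2 the excess of embryoids over controls was larger at D8, and in Cox6b2 the deficit of embryoids was smaller at D8. With the deposited values Atp5c1 was above the controls at D8 and below them at D7. With median-of-ratios scaling its D7 value was positive (0.12) without passing. The levels of heart muscle genes and of markers of other cell types, given with the tissue forms above, differed between the same libraries, and their part was not tested.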

How the results depend on the processing

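With median-of-ratios scaling, quantile normalization and totals without ribosomal protein genes, members higher at D7 numbered 18, 10 and 10 (6 with the deposited values), lower at D7 6, 27 and 28 (45), higher at D8 30, 25 and 25 (12) and lower at D8 3, 11 and 11 (30). Members that differed between D8 and D7 numbered 9 with median-of-ratios scaling and 6 in a fit of the compared libraries alone for embryoids (15), and 4 and 26 for controls (12). The shares became 2.78, 2.85, 2.82 and 2.73% for D7 embryoids, D7 controls, D8 embryoids and D8 controls without ribosomal protein genes in the total, and 2.42% for D7 controls without assembly factors and tissue isoforms. The cause of these moves was not tested. With the 3 other scalings in the same order 5, 5 and 8 members had a changed difference between conditions (6). Quantile normalization gave 4 with a higher and 1 with a lower difference at D8. Leaving out 1 library gave 5 to 8 members higher and 37 to 61 lower at D7, 9 to 17 higher and 25 to 39 lower at D8, 2 to 25 for the change of the difference, 10 to 35 for D8 against D7 embryoids and 3 to 23 for D8 against D7 controls; the shares ranged over 2.17 to 2.32% (D7 embryoids), 2.44 to 2.46% (D7 controls), 2.32 to 2.37% (D8 embryoids) and 2.39 to 2.44% (D8 controls).

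Over the 92 tested members, median-of-ratios scaling turned 42 negative values positive at D7 and 33 at D8. Signs that changed included the following. At D7, median-of-ratios scaling gave 0.0060 for Sdhc, 0.16 for Uqcrh, 0.12 for Atp5c1, 0.19 for Atp5g2, 0.14 for Ndufv3 and 0.033 for Sdhb, quantile normalization gave -0.020 for Ndufa4l2, 0.010 for Uqcrh and 0.027 for Ndufv3 and totals without ribosomal protein genes gave 0.0041 for Uqcrh and 0.041 for Atp5g2. At D8, median-of-ratios scaling gave 0.062 for Ndufa3, 0.056 for Sdhc, 0.077 for Sdha and 0.15 for Ndufv1, quantile normalization gave -0.15 for Cox4i1, -0.25 for Atp5b and 0.045 for Ndufv1 and totals without ribosomal protein genes gave 0.023 for Ndufv1. Leaving out 1 library gave -0.26 to 0.16 for Cox7a1 at D7 (other sign without embryoid D7 replicate 2), -0.33 to 0.53 for Ndufa4l2 at D7 (other sign without embryoid D7 replicate 3), -0.047 to 0.13 for Cox4i1 at D7 (other sign without embryoid D7 replicate 2), -0.092 to 0.019 for Atp5g2 at D7 (other sign without embryoid D7 replicate 1), -0.036 to 0.11 for Ndufab1 at D7 (other sign without embryoid D7 replicate 2), -0.45 to 0.050 for Ndufs5 at D8 (other sign without embryoid D8 replicate 1) and -0.019 to 0.020 for Cox4i1 at D8 (other sign without control D8 replicate 1 or embryoid D8 replicate 1).

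With a replicate block, 5 members were higher and 43 lower at D7, 13 higher and 31 lower at D8, 4 changed their difference, 13 differed between D8 and D7 embryoids and 9 between D8 and D7 controls. The block ended the calls of Ndufv1 at D7 (adjusted p = 0.0566) and of the changed difference of Cox6b2 (0.0535) and Atp5c1 (0.0534). Libraries of the same number in the labels did not deviate together (correlations over genes of -0.19 to 0.08 in 12 pairs), so the numbers were not taken to pair samples. Values of 1 to 4 TPM are limited by rounding.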
